A study of Mus musculus with 18 samples.

Results

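A set of 10 amino acid transporter genes was followed across 6 groups of RAW264.7 mouse macrophages: Slc7a11, Slc3a2, Slc7a5, Slc7a1, Slc7a3, Slc1a4, Slc1a5, Slc38a2, Slc6a9 and Slc43a1. They were found by the array platform's gene annotation, which gave all 10 genes a probe set, 19 probe sets in all, and every gene passed the filter on low signals. They were thus 10 of the 11547 genes tested.

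Amino acid transporters sit in the plasma membrane and carry amino acids into or out of the cell, many of them by exchanging one amino acid for another. Macrophages use them to import cystine for glutathione, arginine for nitric oxide and polyamines, and leucine and glutamine for growth and energy. When amino acids run short or proteins misfold, the kinases GCN2 and PERK raise translation of the transcription factor ATF4, which is known to induce transporter genes, aminoacyl-tRNA synthetase genes and genes of serine, glycine and asparagine synthesis. The cystine transporter gene Slc7a11 is also a known target of NRF2, the regulator of antioxidant genes.

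The cells were a single established mouse macrophage line, grown from a tumour induced with Abelson leukaemia virus. Cultures received 0.1% DMSO as vehicle, a sub-fraction of St John's wort (Hypericum perforatum) at 10 µg/mL, or a mixture of 4 compounds that the labels call 4CS, in each case with or without lipopolysaccharide (LPS, a bacterial activator of macrophages) at 10 µg/mL for 8 h. The mixture held quercetin (0.08 µM), pseudohypericin (0.03 µM), amentoflavone (0.07 µM) and chlorogenic acid (0.2 µM), and all cells had 10% fetal bovine serum and 30 min of ambient light after dosing in the dark. A DMSO content is given for the vehicle cultures only, so whether the fraction and mixture cultures held the same amount is not known here. Each of the 6 groups had 3 arrays, and because the labels do not say whether these came from separate cultures, the p-values measure the spread between arrays, which may be technical. RNA came from whole cultures, so fewer cells expressing a gene and less RNA per cell cannot be told apart.

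Values are linear signal intensities, scaled on every array to a trimmed mean of 500.0, with array medians between 52.1 and 66.8. Arrays of the same group correlated at 0.970 to 0.979. Of 10 macrophage markers 9 lay above the array median on all 18 arrays (Mertk did not), and of 19 measured markers of T cells, B cells, epithelium, fibroblasts, endothelium, neutrophils and mast cells 0 did. The summed signal of these other markers ran from 387 to 546 on vehicle arrays, from 316 to 424 on fraction arrays and from 511 to 644 on mixture arrays. With LPS it ran, in the same order, from 531 to 740, from 440 to 618 and from 536 to 559. Its part in the results was not tested. A difference is the gap between the mean log2 signals of 2 groups, with its standard error, from a linear model (limma) fitted to all genes. A gene was called where its p-value, adjusted over all 11547 genes by the Benjamini-Hochberg method, was under 0.05.

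Promoter windows from RefSeq (build GRCm38.p6, 250 bases before to 50 after the transcription start) were found for 7 of the 10 genes, 10 windows in all as Slc7a1 has 2 and Slc6a9 has 3, and searched on both strands for 3 motifs. TTGCATCA, a composite site known to be bound by ATF4 paired with C/EBP proteins, occurred in 0.895% of 32851 windows of this length, and among the 7 genes in Slc7a11 and Slc1a4. The windows of Slc3a2, Slc7a1, Slc6a9, Slc38a2 and Slc43a1 did not hold it, and Slc7a5, Slc7a3 and Slc1a5 had no window. A link between the motif and the differences below was not tested. The stretches of Slc7a11 and Slc1a4 around the motif are shown here, 5′ to 3′ on the gene's strand, with the motif in capitals. The stretch of Slc7a11 lies at chr3:50443623-50443709 on the minus strand and holds the motif in both orientations, from -66 to -59 (reverse complement) and from -47 to -40 relative to the start. The stretch of Slc1a4 lies at chr11:20332700-20332747, also on the minus strand, and its motif spans the start, from -4 to 4.
Slc7a11: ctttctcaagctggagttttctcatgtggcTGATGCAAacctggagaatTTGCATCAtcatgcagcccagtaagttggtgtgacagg
Slc1a4: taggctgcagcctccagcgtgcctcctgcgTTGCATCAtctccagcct
The antioxidant response motif TGACNNNGC was in 12.4% of all windows, in 1 of the 2 of Slc7a1, in 2 of the 3 of Slc6a9, and in those of Slc38a2 and Slc43a1. The E-box CACGTG was in 7.15% of all windows and in that of Slc43a1. No motif contains another, and a match describes letters only, not a bound site.

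The sub-fraction raised most of these transporter genes. Without LPS, Slc1a4, Slc7a11, Slc6a9, Slc3a2, Slc7a1, Slc7a5 and Slc38a2 were higher in fraction cells than in vehicle cells, 7 of 10, where 15.9% of all tested genes were called higher and 15.3% lower, and 0 of the 10 were called lower in limma (also 0 at an unadjusted p under 0.05). With LPS, 6 of 10 were higher, the same genes without Slc38a2, against 11.1% of all genes higher and 12.7% lower. The median log2 difference of the 10 genes was 0.98 without LPS and 1.02 with LPS, beside medians of 0.02 and -0.02 over all tested genes. The 10 genes were chosen with earlier results of these data known, so these counts and medians are not independent evidence of a direction. Among 26 other amino acid transporter genes tested, the medians were 0.06 without LPS and -0.03 with LPS. Fraction arrays lay wholly above vehicle arrays for 8 of 10 genes and wholly below for 1 without LPS, and for 8 and 0 with LPS. With 3 arrays per group such a lack of overlap, in either direction, held for 42.9% of all tested genes without LPS and 36.1% with LPS. Without LPS 1837 genes were higher and 1771 lower in all, a split that became 938 and 1959 when each array was centred on its median over all probe sets. That centring shifted the median over all genes by -0.13.

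**Figure D1:**
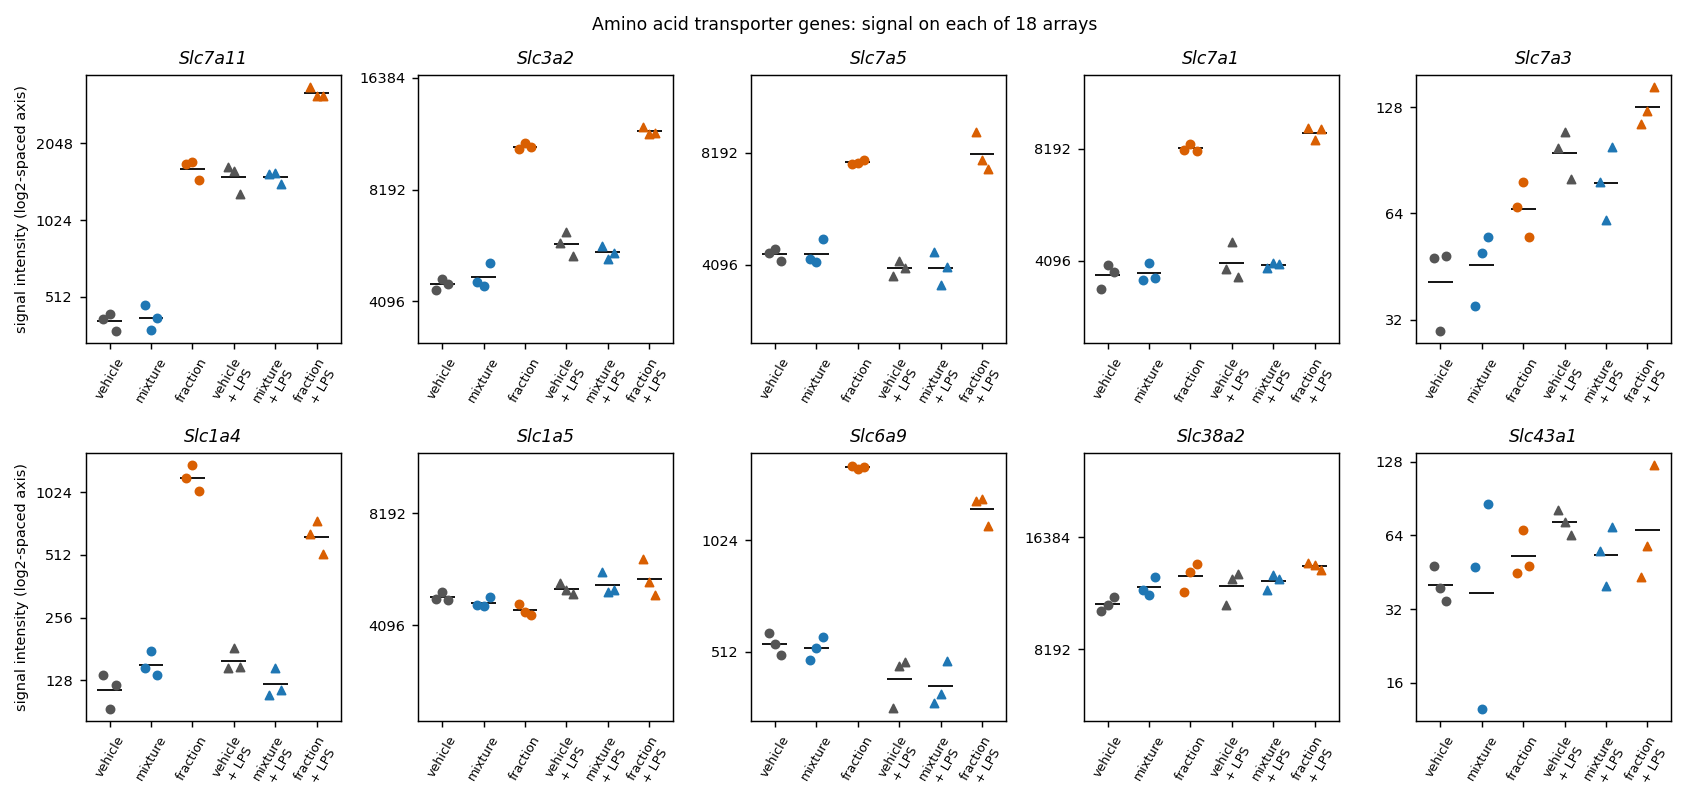
Signal intensity of the 10 transporter genes on each of 18 arrays, 1 panel per gene, on a log2-spaced axis. Points are arrays (triangles with LPS), bars are the means of the log2 values, and the panels of Slc7a11, Slc3a2, Slc7a5, Slc7a1, Slc1a4 and Slc6a9 show the 3 fraction arrays above the 3 vehicle and the 3 mixture arrays in each LPS state.

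Slc7a11 encodes the light chain of the cystine-glutamate exchanger, which brings in cystine for glutathione synthesis. Without LPS its signal was 417, 439 and 377 on the vehicle arrays, 1697, 1722 and 1472 on the fraction arrays, and 476, 379 and 424 on the mixture arrays. With LPS it was 1657, 1594 and 1290 in vehicle cells, 3414, 3131 and 3135 in fraction cells, and 1546, 1569 and 1421 in mixture cells. Vehicle and mixture arrays overlapped in both states, whereas all fraction arrays lay above them. From a vehicle mean of 411 ± 31.5 (SD, n = 3), the fraction raised the signal to 1630 ± 138, a 3.96-fold difference (1.99 ± 0.11, limma adjusted p = 1.2e-10). With LPS the difference was 2.14-fold (1.10 ± 0.11, limma adjusted p = 5.6e-07). LPS alone raised Slc7a11 3.67-fold in vehicle cells (1.87 ± 0.11, limma adjusted p = 2.8e-10), to levels that overlapped those of the fraction without LPS. The highest level, 3227, was in cells that received both.

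Slc3a2 encodes the heavy chain shared by Slc7a11, Slc7a5 and related light chains, which takes them to the membrane. Its signal without LPS was 4393, 4718 and 4561 in vehicle cells, 10535, 10914 and 10663 in fraction cells, and 4624, 4514 and 5186 in mixture cells. In the presence of LPS the values were 5884, 6289 and 5423 in vehicle cells, 12070, 11570 and 11675 in fraction cells, and 5788, 5346 and 5525 in mixture cells. The 6 fraction arrays were thus the 6 highest, and no array of another group came near them. The fraction raised Slc3a2 2.35-fold without LPS (1.23 ± 0.07, limma adjusted p = 1.9e-10) and 2.01-fold with LPS (1.01 ± 0.07, limma adjusted p = 7.1e-09).

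Slc7a5 encodes the light chain that exchanges leucine and other large neutral amino acids across the membrane. Its signal without LPS was 4410, 4505 and 4197 in vehicle cells, 7629, 7700 and 7858 in fraction cells, and 4232, 4154 and 4805 in mixture cells. With LPS it was 3827, 4179 and 4009 in vehicle cells, 9315, 7841 and 7433 in fraction cells, and 4427, 3609 and 4046 in mixture cells. Fraction arrays again lay above all others, with the widest spread in the fraction group with LPS. The fraction raised Slc7a5 1.77-fold without LPS (0.82 ± 0.09, limma adjusted p = 9.7e-07) and 2.04-fold with LPS (1.03 ± 0.09, limma adjusted p = 1.1e-07). LPS in vehicle cells gave a difference of -0.13 ± 0.09 (limma adjusted p = 0.31).

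Slc43a1, another carrier of large neutral amino acids, was barely measured, with 8 of its 18 values at or above the array median and a range of 12.5 to 124. It was called in none of the 11 comparisons, and its intervals were wide, from -0.74 to 1.52 for the fraction without LPS.

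Slc7a1 encodes a carrier of arginine, lysine and ornithine. Its signal without LPS was 3432, 3991 and 3806 in vehicle cells, 8131, 8417 and 8075 in fraction cells, and 3639, 4041 and 3685 in mixture cells. After LPS the signal was 3888, 4590 and 3700 in vehicle cells, 9301, 8624 and 9246 in fraction cells, and 3915, 4045 and 3998 in mixture cells. The 4 groups without the fraction overlapped one another, and the fraction arrays stood apart from all of them. The fraction raised Slc7a1 2.20-fold without LPS (1.14 ± 0.08, limma adjusted p = 4.2e-09) and 2.24-fold with LPS (1.16 ± 0.08, limma adjusted p = 7.1e-09).

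Slc7a3, a second carrier of cationic amino acids, was near the detection range, with 11 of 18 values at or above the array median. Without LPS its signal was 47.7, 29.8 and 48.3 in vehicle cells, 66.8, 78.5 and 54.9 in fraction cells, and 34.9, 49.5 and 54.8 in mixture cells. With LPS it was 98.2, 108.8 and 80.1 in vehicle cells, 114, 125 and 146 in fraction cells, and 78.5, 61.4 and 98.7 in mixture cells. Each LPS group lay above its own group without LPS, and the fraction arrays lay above the vehicle arrays in both states. A lack of overlap by LPS, in either direction, held for 41.5% of all tested genes in vehicle cells, 49.1% in fraction cells and 40.3% in mixture cells. LPS raised Slc7a3 in vehicle cells by 1.21 ± 0.30 (limma adjusted p = 0.0040), at least 1.56-fold against the array median, under which the vehicle arrays lay. The differences between fraction and vehicle, 0.69 ± 0.30 without LPS (limma adjusted p = 0.091) and 0.43 ± 0.30 with LPS (0.34), were not called.

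Slc1a4, which encodes an exchanger of alanine, serine and cysteine, differed most between fraction and vehicle among the 10 genes. Its signal without LPS was 135, 93.2 and 121 in vehicle cells, 1200, 1384 and 1041 in fraction cells, and 147, 177 and 135 in mixture cells. With LPS the values were 147, 184 and 148 in vehicle cells, 643, 743 and 517 in fraction cells, and 109, 147 and 114 in mixture cells. The fraction arrays were highest in both states, and those without LPS lay above those with LPS. Fraction arrays with and without LPS did not overlap, in either direction, for 49.1% of all tested genes. From a mean of 117 ± 21.5 (SD, n = 3) in vehicle cells, Slc1a4 rose to 1208 ± 171 in fraction cells, 10.4-fold (3.38 ± 0.18, limma adjusted p = 1e-10). With LPS the difference was 3.95-fold (1.98 ± 0.18, limma adjusted p = 2.1e-07).

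Slc1a5, the related exchanger that carries glutamine, stood at 4370 to 6172 on all 18 arrays. Vehicle arrays without LPS were at 4828, 5047 and 4803, and fraction arrays without LPS, at 4663, 4437 and 4370, all lay below them. The fraction gave -0.12 ± 0.08 without LPS (95% interval -0.29 to 0.04, limma adjusted p = 0.25) and 0.09 ± 0.08 with LPS (-0.07 to 0.25, limma adjusted p = 0.44). A change of the size seen in Slc1a4 thus lay outside both intervals. Within fraction cells LPS raised Slc1a5 1.22-fold (0.28 ± 0.08, limma adjusted p = 0.0069), and when array 1 of fraction and LPS was left out this call was lost (0.20, limma adjusted p = 0.057). It was lost in 5 of 18 alternatives, among them quantile normalization (0.19, limma adjusted p = 0.061), median centring over all probe sets (0.27, limma adjusted p = 0.12) and the mean of both probe sets (0.22, limma adjusted p = 0.24).

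Slc38a2 encodes a sodium-coupled carrier of small neutral amino acids that cells use to adapt to amino acid shortage. Its signal was 10386, 10762 and 11284 in vehicle cells and 11674, 13196 and 13918 in fraction cells without LPS. In the other groups it lay between 10794 and 13965. The vehicle and fraction arrays without LPS did not overlap, and the fraction raised Slc38a2 1.19-fold (0.26 ± 0.08, limma adjusted p = 0.019). The call rested on single arrays: it was lost without vehicle array 1 (0.23, limma adjusted p = 0.065), without fraction array 2 (0.24, limma adjusted p = 0.066) or without fraction array 3 (0.20, limma adjusted p = 0.092), and after median centring over all probe sets (0.13, limma adjusted p = 0.43). With LPS the difference was 0.18 ± 0.08 (limma adjusted p = 0.11).

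Slc6a9 encodes a sodium- and chloride-coupled glycine transporter. Its signal without LPS was 577, 538 and 502 in vehicle cells, 1623, 1593 and 1617 in fraction cells, and 488, 525 and 563 in mixture cells. With LPS it was 362, 469 and 481 in vehicle cells, 1304, 1318 and 1121 in fraction cells, and 373, 395 and 483 in mixture cells. The fraction arrays lay far above the rest, and in each treatment the arrays with LPS lay below those without. Such a lack of overlap by LPS, in either direction, held for 41.5% of all tested genes in vehicle cells, 49.1% in fraction cells and 40.3% in mixture cells. The fraction raised Slc6a9 2.99-fold without LPS (1.58 ± 0.12, limma adjusted p = 1e-08) and 2.87-fold with LPS (1.52 ± 0.12, limma adjusted p = 4e-08).

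Of the 10 genes 6 had more than 1 probe set, and apart from Slc1a5 without LPS, each further probe set gave the same sign for the fraction as the brightest one. The second probe set of Slc7a11 gave 1.81 ± 0.17 without LPS and 1.00 ± 0.17 with LPS, and those of Slc1a4 gave 3.34 and 3.56 without LPS and 2.09 and 2.40 with LPS, all called over the probe sets. The second set of Slc6a9 was called at 1.95 and 1.63, and a bright second set of Slc7a1 at 0.80 and 0.79. The remaining set of Slc7a1, dim throughout, gave 0.54 and 0.66 and was not called. For Slc38a2 the other sets gave 0.32 (limma adjusted p = 0.066) and 0.63 (limma adjusted p = 0.011) without LPS and 0.48 (limma adjusted p = 0.010) and 0.59 (limma adjusted p = 0.022) with LPS, so that with LPS both were called where the brightest set was not. The second set of Slc1a5 gave 0.18 and 0.15 and was not called.

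**Figure D2:**
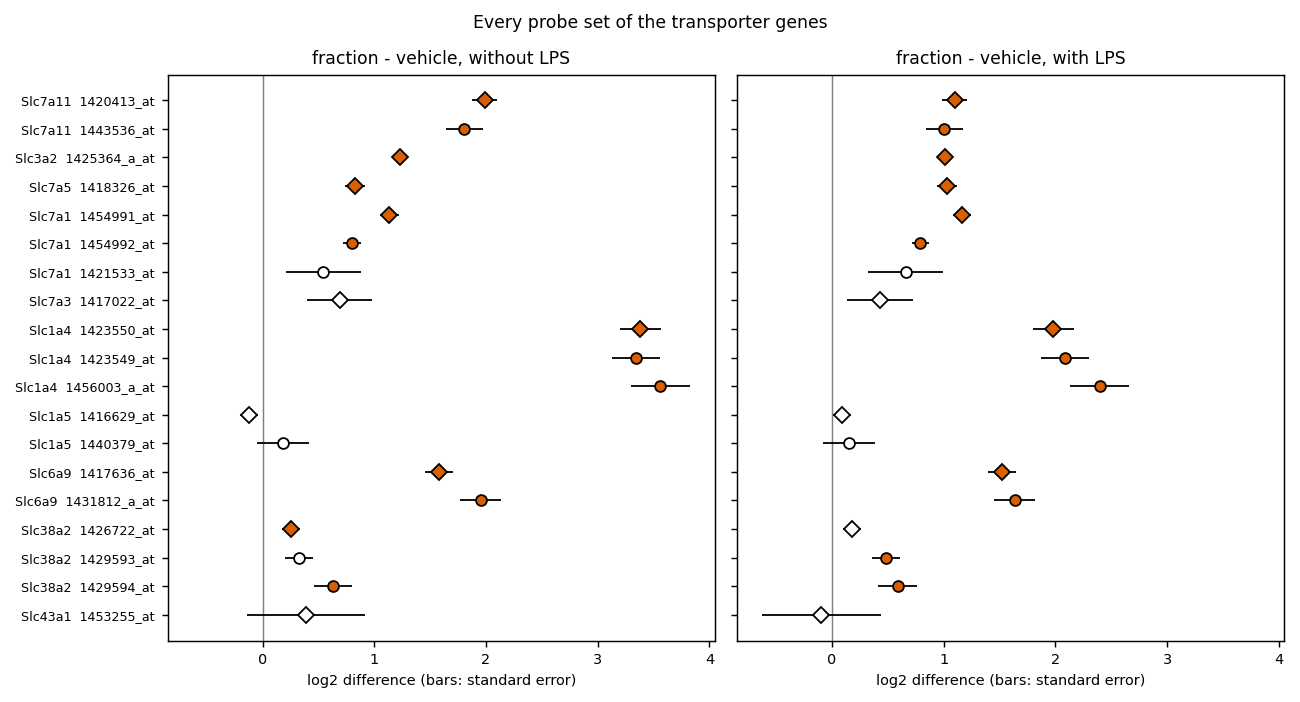
Log2 difference between fraction and vehicle, without LPS (left) and with LPS (right), for each of the 19 probe sets. Bars are standard errors, diamonds mark the probe set used for the gene, and filled symbols have an adjusted p under 0.05. The 3 probe sets of Slc1a4 lie between 3.34 and 3.56 without LPS and between 1.98 and 2.40 with LPS.

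The mixture of 4 compounds was compared with vehicle to ask whether the named compounds act as the whole sub-fraction does. In limma 0 of the 10 genes were called without LPS and 0 with LPS, as were 0% of all tested genes in both states. The count of 0 over all genes with LPS rested on 1 array: without array 1 of vehicle and LPS 91 genes were higher and 100 lower, and without all arrays numbered 1, 13 and 50, with 0 of the 10 transporter genes called either way. At an unadjusted p under 0.05 the count was 1 of 10 without LPS (565 of 11547 genes) and 0 of 10 with LPS (934 genes). The gene that passed unadjusted was Slc1a4, at 0.40 ± 0.18 without LPS (unadjusted p = 0.039 in limma, adjusted p = 1). Its lowest mixture array there lay just above the highest vehicle array, and for Slc38a2 these groups did not overlap either. With LPS Slc1a4 was at -0.38 ± 0.18 (limma adjusted p = 0.62), with its highest mixture array just below the lowest vehicle array. Mixture and vehicle arrays did not overlap, in either direction, for 8.31% of all tested genes without LPS and 12.6% with LPS. For the 8 genes measured well above the array median, the 95% intervals of mixture against vehicle ran from -0.29 to 0.78 without LPS and from -0.76 to 0.23 with LPS. For Slc7a11, Slc3a2, Slc7a5, Slc7a1, Slc1a4 and Slc6a9, the upper bound lay below the difference that the same gene had in fraction cells. Smaller differences lay within the intervals.

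Set against the mixture directly, the fraction was higher for 6 of 10 genes without LPS, where 17% of all tested genes were higher and 15.4% lower. With LPS 6 of 10 were higher, beside 12% of all genes higher and 16.2% lower. The genes were Slc7a11, Slc7a5, Slc7a1, Slc3a2, Slc1a4 and Slc6a9 in both states. Slc1a4 differed 7.89-fold without LPS (2.98 ± 0.18, limma adjusted p = 4.7e-10) and 5.13-fold with LPS (2.36 ± 0.18, limma adjusted p = 2e-08). Slc7a11 differed 3.83-fold and 2.13-fold, Slc6a9 3.07-fold and 3.00-fold, Slc3a2 2.25-fold and 2.12-fold, Slc7a1 2.17-fold and 2.27-fold, and Slc7a5 1.76-fold and 2.03-fold. The comparisons of the fraction with vehicle and with the mixture share the fraction arrays, and those of the fraction and the mixture with vehicle share the vehicle arrays.

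**Figure D3:**
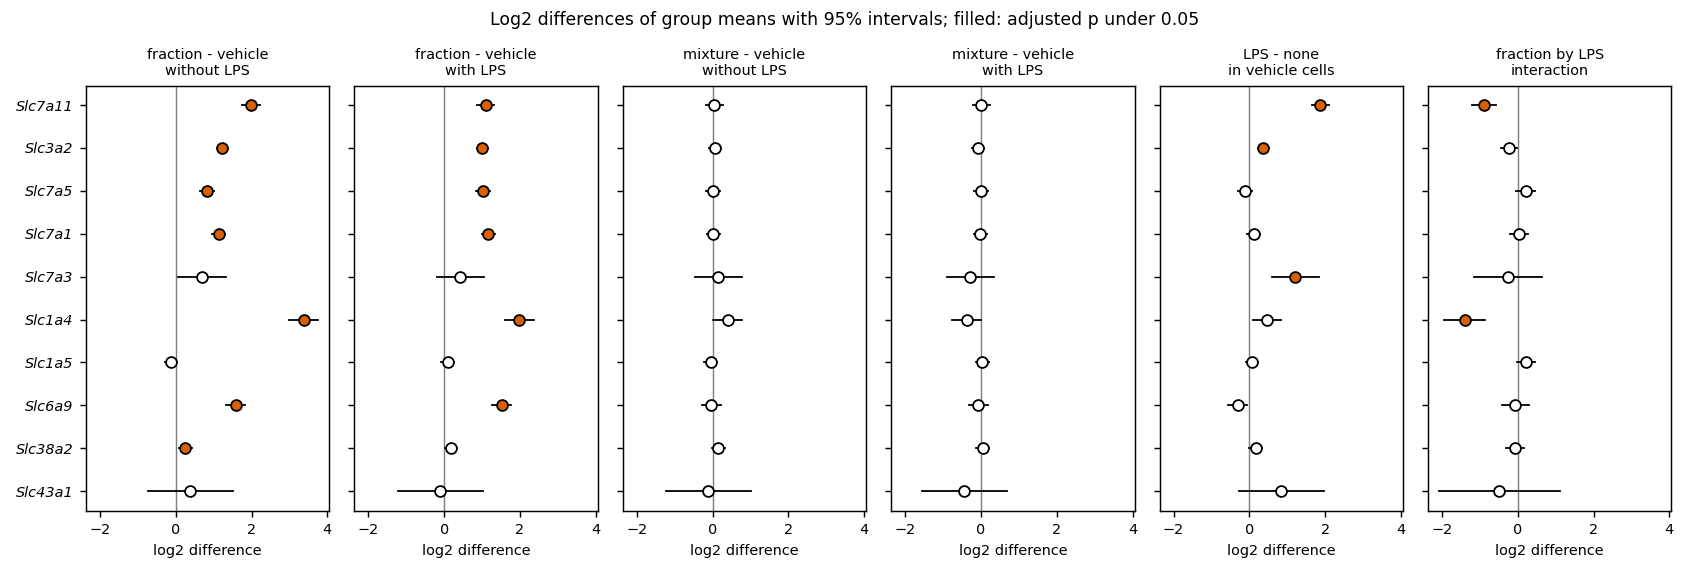
Log2 differences of the 10 transporter genes in 6 comparisons, with 95% intervals from the linear model. Filled points have an adjusted p under 0.05: 7 for the fraction without LPS, 6 with LPS, 0 for the mixture in both states, 3 where LPS was given to vehicle cells, and 2 in the interaction of fraction and LPS.

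In vehicle cells LPS raised Slc7a11, Slc7a3 and Slc3a2, 3 of 10, and lowered 0, where 10.1% of all genes rose and 21.8% fell. At an unadjusted p under 0.05 limma gave 4 of 10 higher and 1 lower, beside 40.6% of all genes in either direction. Slc3a2 rose 1.28-fold (0.36 ± 0.07, limma adjusted p = 0.00054), a call lost after median centring over all probe sets (0.23, limma adjusted p = 0.13). The median of the 10 genes was 0.26, beside -0.07 over all genes. Slc1a4 at 0.46 ± 0.18 (limma adjusted p = 0.059) and Slc6a9 at -0.31 ± 0.12 (limma adjusted p = 0.057) were not called. Slc1a4 was called when vehicle array 1 was left out (0.58, limma adjusted p = 0.036) and Slc6a9 when array 3 of vehicle and LPS was left out (-0.39, limma adjusted p = 0.039). Slc38a2, at 0.17 ± 0.08 (limma adjusted p = 0.12), was called when array 1 of vehicle and LPS was left out (0.25, limma adjusted p = 0.021). Over all genes 1161 were higher and 2519 lower with LPS in vehicle cells. Those numbers became 669 and 2939 after centring each array on its median over all probe sets, and 2366 and 1351 after centring on the median of the tested genes. The former shifted the median over all genes by -0.13 and the latter by 0.19.

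In fraction cells LPS raised Slc7a11, Slc7a3 and Slc1a5 and lowered Slc1a4 and Slc6a9, 3 and 2 of 10, where 11.5% of all genes rose and 25.8% fell. Slc7a11 rose 1.98-fold (0.99 ± 0.11, limma adjusted p = 8e-07) and Slc1a4 fell 1.91-fold (-0.94 ± 0.18, limma adjusted p = 0.00041). Slc7a3 rose 1.93-fold (0.95 ± 0.30, limma adjusted p = 0.017). Its call was lost without fraction array 3 (0.82, limma adjusted p = 0.067) or without array 3 of fraction and LPS (0.85, limma adjusted p = 0.067). Slc6a9 fell 1.29-fold (-0.37 ± 0.12, limma adjusted p = 0.020), which was lost without fraction array 1 (-0.37, limma adjusted p = 0.053) or without array 3 of fraction and LPS (-0.30, limma adjusted p = 0.10). It was also lost after median centring over all probe sets (-0.38, limma adjusted p = 0.052) and after centring on the tested genes (-0.18, limma adjusted p = 0.26). The split over all genes, 1330 higher and 2979 lower, became 2582 and 1694 after centring on the tested genes.

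In mixture cells LPS raised Slc7a11 and Slc3a2 and lowered Slc6a9, 2 and 1 of 10, where 8.32% of all genes rose and 16.3% fell. Slc7a11 rose 3.56-fold (1.83 ± 0.11, limma adjusted p = 3.1e-10). Slc3a2 rose 1.16-fold (0.22 ± 0.07, limma adjusted p = 0.027). This call was lost without mixture array 1 (0.20, limma adjusted p = 0.090) or 2 (0.18, limma adjusted p = 0.12), and without array 1 (0.19, limma adjusted p = 0.098) or 3 (0.22, limma adjusted p = 0.062) of mixture and LPS, and in 8 of 18 alternatives in all. Slc6a9 fell 1.27-fold (-0.34 ± 0.12, limma adjusted p = 0.047). It was called in only 5 of 18 alternatives. After quantile normalization it was at -0.24 (limma adjusted p = 0.16), after centring on the tested genes at -0.21 (0.23), and without the filter on low signals its limma adjusted p was 0.067. It was not called without array 2 or 3 of the mixture, nor without array 1 or 2 of mixture and LPS (log2 -0.34, -0.29, -0.26 and -0.30, with limma adjusted p = 0.098, 0.15, 0.18 and 0.14). Over all genes 961 were higher and 1883 lower, and 1689 and 1092 after centring on the tested genes.

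Whether the fraction acted differently with LPS was tested by the interaction of both treatments, for which 0.892% of all genes were called higher and 1.25% lower (103 and 144). These numbers moved with single arrays, to 54 and 71 without vehicle array 3, 65 and 59 without fraction array 2, 60 and 63 without array 2 of vehicle and LPS, and 72 and 87 without array 3 of fraction and LPS. With the replicate number as a block in the model they were larger, 198 and 269. Of the 10 transporter genes 2 were called, Slc7a11 and Slc1a4, both with a smaller difference between fraction and vehicle in the presence of LPS. For Slc1a4 the difference was 1.40 ± 0.26 log2 units smaller (limma adjusted p = 0.0062), and its signal fell with LPS in fraction cells while in vehicle cells it was at 117 without and 160 with LPS. For Slc7a11 it was 0.89 ± 0.15 log2 units smaller (limma adjusted p = 0.0041), and here the signal rose with LPS in both. After median centring over all probe sets, with a shift of 0.12 in the median over all genes, the interaction was -1.28 for Slc1a4 (limma adjusted p = 0.048) and -0.77 for Slc7a11 (limma adjusted p = 0.11), and the split over all genes turned from 103 higher and 144 lower to 58 and 28. The other probe sets of Slc1a4 gave -1.26 (limma adjusted p = 0.051) and -1.16 (limma adjusted p = 0.17), and that of Slc7a11 gave -0.80 (limma adjusted p = 0.12), so the sign was shared but the call was not. Slc3a2 was at -0.22 ± 0.10 (limma adjusted p = 0.32), and the intervals of Slc7a5, Slc7a1 and Slc6a9 included 0. The interaction of mixture and LPS was called for 0 of the 10 genes and 0% of all genes in limma. At an unadjusted p under 0.05 it had 1 of 10, Slc1a4 at -0.78 (unadjusted p = 0.0069 in limma), and 412 of all genes.

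The order of the groups differed between genes. For Slc3a2 and Slc7a1 the fraction with LPS was highest and the fraction without LPS next, clear of each other and of the remaining 4 groups. For Slc7a5 these 2 groups overlapped. For Slc1a4 and Slc6a9 the order of the 2 fraction groups was the other way round, again without overlap. These 2 groups did not overlap, in either direction, for 49.1% of all tested genes. For Slc7a11 the fraction without LPS overlapped the vehicle and mixture groups with LPS, below the fraction with LPS. For Slc38a2 the vehicle group had the lowest mean and was clear of the mixture group, the next in order, but it overlapped the vehicle group with LPS. The remaining groups of Slc38a2 overlapped their neighbours. For Slc1a5 and Slc43a1 each group overlapped its neighbours in the order.

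Across the 18 arrays, which share the treatments and the scaling, the log2 signals of Slc7a1 and Slc3a2 had the highest Pearson correlation among pairs of the 10 genes (0.980) and Slc1a5 and Slc6a9 the lowest (-0.21). Outside the 10 genes, the pattern most like that of Slc7a1 was that of Tars (0.987), Mthfd2 (0.986) and Lars (0.985), and the pattern most like that of Slc3a2 that of Rars (0.985), Glrp1 (0.984) and Mthfd2 (0.983). Tars, Lars and Rars encode aminoacyl-tRNA synthetases. Slc6a9 was most like Aldh18a1 (0.988), Gpt2 (0.987) and Pck2 (0.987), Slc7a5 like Cyb5r1 (0.983), Mib2 (0.980) and Pck2 (0.977), and Slc1a4 like Slc38a7, Aars and Aldh1l2 (0.975 each). For Slc7a11 the nearest were Amn1 (0.975), Osgin2 (0.972) and Arhgef3 (0.972). The nearest genes were less close for Slc7a3 (Osm, 0.912), Slc38a2 (Lrch3, 0.888), Slc43a1 (Aurkc, 0.880) and Slc1a5 (Syk, 0.846).

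Other genes of amino acid handling were read from 5 lists, to be set beside the medians of all genes (0.02 without and -0.02 with LPS) and the shares of all genes called (15.9% higher and 15.3% lower without LPS, 11.1% and 12.7% with LPS). Of 26 other amino acid transporter genes tested, 7 were higher and 2 lower in fraction cells without LPS (median 0.06), and 5 were higher and 5 lower with LPS (median -0.03). Slc38a7, a carrier of the same family as Slc38a2, rose from a mean of 379 to 961 without LPS (1.34 ± 0.12, limma adjusted p = 1.3e-07). Slc7a7, a light chain that exchanges cationic for neutral amino acids with Slc3a2, rose from 86.7 to 396 (2.19 ± 0.27, limma adjusted p = 4.2e-06). Slc1a1, a carrier of glutamate and cysteine, lay under the array median in vehicle cells and at 82.9 in fraction cells, at least 1.36-fold higher against that median (limma adjusted p = 0.0021).

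Of 29 tested genes of the amino acid response (GCN2, PERK, ATF4 and known ATF4 targets), 26 were higher and 0 lower in fraction cells without LPS (median 1.34), and 24 were higher and 0 lower with LPS (median 1.09). At an unadjusted p under 0.05 limma also gave 0 lower in both states. In the interaction 8 of the 29 were lower and 0 higher in limma (12 and 2 at an unadjusted p under 0.05), beside 1.25% lower and 0.892% higher of all genes (13.6% in both directions unadjusted). The list was chosen with such results known, and so its count is not independent evidence of a direction. Trib3, a pseudokinase gene, was at 4.73 ± 0.16 without LPS (limma adjusted p = 4e-13), Ddit3, a transcription factor gene, at 4.42 ± 0.23 (limma adjusted p = 6.2e-11), and Atf3 at 3.18 ± 0.24 (limma adjusted p = 1e-08). Their interactions were -1.44, -2.10 and -1.72 log2 units (limma adjusted p = 0.0023, 0.0016 and 0.011).

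Of 17 tested genes of NRF2, its targets, and glutathione and thioredoxin metabolism, 6 were higher and 1 lower without LPS (median 0.32), and 5 higher and 2 lower with LPS (median 0.14). The list holds genes of heme handling besides those of thiol metabolism. Hmox1, heme oxygenase, was at 1.79 ± 0.14 without LPS (limma adjusted p = 1.7e-08) and 1.74 with LPS. Gclc, the catalytic subunit of the first enzyme of glutathione synthesis, was at 0.87 ± 0.16 (limma adjusted p = 0.00043) and 0.81, and Slc48a1, a heme transporter, at 0.63 ± 0.13 (limma adjusted p = 0.0010) and 0.51.

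Among 30 genes by which mTORC1, the growth kinase complex, senses amino acids, 8 were higher and 5 lower without LPS (median 0.13), and 3 higher and 4 lower with LPS (median -0.04). Sesn1, of the leucine-sensing sestrin family, was at -1.09 ± 0.18 (limma adjusted p = 0.00012), Fnip1, a partner of folliculin, at 0.79 ± 0.12 (limma adjusted p = 6.2e-05), and Castor2, of the arginine-sensing family, at -0.67 ± 0.18 (limma adjusted p = 0.0078). Of 14 genes of arginine and glutamine use, 4 were higher and 3 lower in each state (medians 0.11 and -0.06). Arg2, an arginase, rose from under the array median to 87.6, at least 1.44-fold (limma adjusted p = 0.00087), Aldh18a1, of proline and ornithine synthesis, was at 1.14 ± 0.08 (limma adjusted p = 2.4e-09), and Glul, glutamine synthetase, at -1.16 ± 0.14 (limma adjusted p = 2.6e-06).

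**Figure D4:**
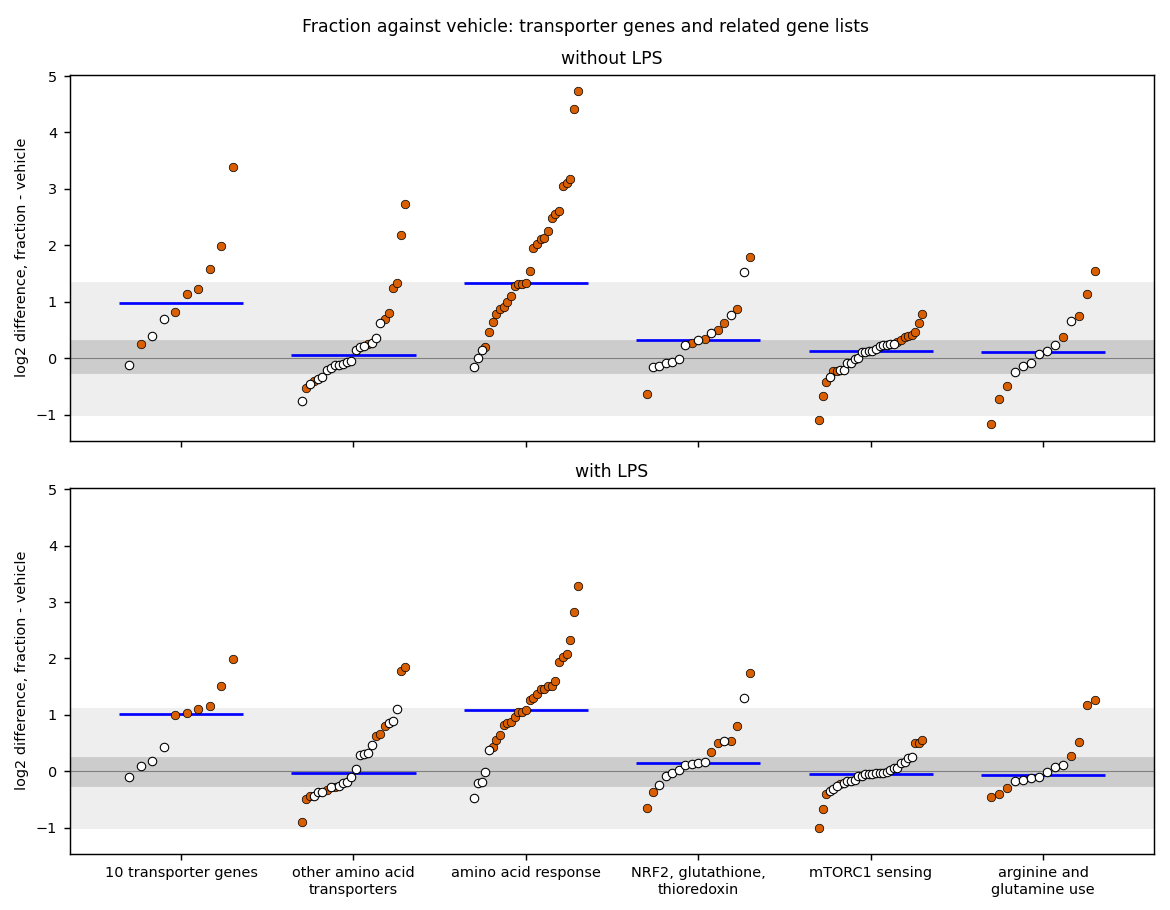
Log2 difference between fraction and vehicle, without LPS (top) and with LPS (bottom), for the 10 transporter genes and the tested members of 5 related lists. Filled points have an adjusted p under 0.05, blue bars are medians, and the dark and light grey bands hold the middle 50% and 95% of all 11547 genes. The medians of the 10 transporters (0.98 and 1.02) and of the amino acid response list (1.34 and 1.09) lie above the dark band in both panels.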

How the data were processed

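RNA was measured on 18 Affymetrix mouse genome expression arrays (6 groups of 3). The deposited values were linear signal intensities of 45101 probe sets, computed with MAS5 per the submitters' processing notes (version not given in the sources used here). Arrays give no read depth, so their number limits the precision.

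A floor of 1 was applied to the intensities (0.824% of them lay below it) before log2. After 64 control probe sets were left out, 25612 probe sets remained that were at or above the median of the array on 3 or more arrays, and the probe set with the highest mean log2 signal stood for each of 11547 genes. Gene names came from the platform annotation, updated through RefSeq. A model with 6 group means (12 residual degrees of freedom) was fitted with limma 3.58.1 (R 4.3.3, eBayes with an intensity trend), with 11 two-sided comparisons. Folds are ratios of the means of log2 values. Where 1 group lay under the array median the fold is a lower bound against that median, and where both did none is given. The method was tested on simulated data.

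The transporter genes and the lists were chosen with earlier results of these data known. Each transporter is described, and up to 3 genes are named per list, those with the largest difference of fraction and vehicle without LPS that were called and did not overlap. For likeness, the 3 other genes of highest Pearson correlation were taken, of which some are printed. Alternatives were log2 of the value plus 32, median centring, quantile normalization, a replicate block, no filter, a 75th percentile filter, no trend, p-values of the same probe sets adjusted over every kept probe set, the mean of probe sets, only compared arrays, each array left out, and the arrays numbered 1 left out. Centring on the tested genes was added after seeing the data.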

Additional observations from a re-analysis of the deposited data

Results flagged for a closer look

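The effect of the fraction differed between cells with and without LPS for 2 of the transporter genes, by the test of the interaction itself, which called 0.892% of all genes higher and 1.25% lower. For Slc1a4 the log2 difference between fraction and vehicle went from 3.38 without to 1.98 with LPS, an interaction of -1.40 ± 0.26 (limma adjusted p = 0.0062), which was not called on its 2 other probe sets (limma adjusted p = 0.051 and 0.17). For Slc7a11 it went from 1.99 to 1.10, an interaction of -0.89 ± 0.15 (limma adjusted p = 0.0041), which was not called after median centring over all probe sets (limma adjusted p = 0.11) nor on its other probe set (limma adjusted p = 0.12). Both genes were higher on each fraction array than on each vehicle array of the same LPS state. A lack of overlap between fraction and vehicle arrays, in either direction, held for 42.9% of all tested genes without LPS and 36.1% with LPS.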

How the results depend on the processing

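Of 38 calls of the transporter genes over the 11 comparisons, 30 were kept under all alternatives run, and none changed sign. The 6 genes higher in fraction than in vehicle cells in both LPS states, and in fraction than in mixture cells, were among them. Every alternative but the mean of probe sets scored the brightest probe set of a gene, so a kept call need not hold on its other sets. The interaction of Slc1a4 was kept, yet on its 2 other probe sets it was not called (limma adjusted p = 0.051 and 0.17). Counts of called genes moved by more than 1.5 times only where LPS was compared with none and in the interaction. For LPS in vehicle cells 3 genes were called, against 5 with the replicate block (Slc1a4 and Slc6a9 added, limma adjusted p = 0.034 and 0.047) and 7 with centring on the tested genes. Over all genes 1161 were higher and 2519 lower, against 1356 and 2813 with the block and 2366 and 1351 with that centring. For LPS in fraction cells 5 were called, against 3 without the arrays numbered 1, 3 with median centring, 8 with centring on the tested genes, and 3 to 5 with single arrays left out. Over all genes 1330 were higher and 2979 lower there. The first 3 of these alternatives gave 1075 and 2449, 965 and 2385, and 2582 and 1694. For LPS in mixture cells 3 were called, against 1 without the arrays numbered 1, 1 with median centring, 1 with only the compared arrays, and 1 to 2 with single arrays left out. Over all genes 961 were higher and 1883 lower there. The first 3 of these alternatives gave 862 and 1516, 788 and 1060, and 1024 and 1904. For the interaction of fraction and LPS 2 were called, against 1 with median centring. Leaving arrays out also lowered the number of samples, and the cause of these changes was not tested.

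The labels do not say what a replicate number shares. Deviations of same-numbered arrays from their group means correlated at 0.026 to 0.170 (7 of 27 over 0.1), too weakly to treat the numbers as pairs, although 18 of 18 arrays correlated best with their own number, a hint from the data and not the design.

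Slc7a3 and Slc43a1 lay near the array median and were not tested under the 75th percentile filter, and their intervals were the widest of the 10 genes, and 3 arrays per group limit all intervals.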

Other observations

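Slc7a2, which encodes a cationic amino acid carrier known to be induced in activated macrophages, was not among the 10 genes and was chosen here after its values were seen. Its mean signal lay under the array median in all 3 groups without LPS and was 122 with LPS in vehicle cells, 230 in fraction cells and 70.4 in mixture cells. LPS raised it in each treatment in limma (adjusted p = 0.011, 0.0029 and 0.0016), with log2 differences of 3.06, 3.59 and 4.09 that depend on signals near the floor and are no fold. Fraction and vehicle cells with LPS differed by 0.88 ± 0.87 (limma adjusted p = 0.52). Slc43a2, a carrier of large neutral amino acids related to Slc43a1 and also chosen after seeing its values, fell with LPS in vehicle cells from a mean of 458 to 103 (-2.19 ± 0.27, limma adjusted p = 4.1e-06).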
